A study of Mus musculus with 12 samples.

Results

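Docosahexaenoic acid (DHA), the major polyunsaturated fatty acid of photoreceptor membranes, reaches the eye largely from the blood and passes through the retinal pigment epithelium (RPE) on its way to the photoreceptors. MFSD2A carries DHA across membranes as lysophosphatidylcholine, acyl-CoA synthetases of the ACSL family activate free fatty acids so that they can be esterified, and the acyltransferases LPCAT3 and AGPAT3 build polyunsaturated chains into phospholipids. ADIPOR1 and ADIPOR2 are seven-transmembrane receptors for adiponectin with links to ceramide hydrolysis and to AMP-activated protein kinase (AMPK), and loss of ADIPOR1 is known to lower retinal DHA. The transcripts of 10 genes of this route were followed, taken by symbol from the 28591 genes of the deposited table: *Mfsd2a*, *Acsl1*, *Acsl3*, *Acsl4*, *Acsl5*, *Acsl6*, *Adipor1*, *Adipor2*, *Lpcat3* and *Agpat3*. All 10 were in the table, and all 10 passed the filter on low values (a mean of at least 10 normalized counts) together with 17768 genes in all.

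The data were RNA-seq of RPE from 6 WT mice of the C57BL/6J strain and 6 rd6 mice, all 1 mo of age. The rd6 mice are homozygous for the rd6 allele (Mfrp rd6/rd6), an inherited splicing defect of the gene of the membrane frizzled-related protein present in every cell of the animal and not in the RPE alone. Each library came from the RPE of both eyes of a sample, collected by releasing cells from the eyecup after removal of the retina, so RNA of adjacent cells can be included. Values are normalized counts, that is, reads per gene divided by the size factor of the library. The libraries held 28907262 to 33152725 counted reads, and the fewest reads of any of the 10 genes in any library were 390, for which counting alone gives an error of 5.06% (1 SD). *Mfrp* itself read 30132 to 45442 normalized counts in WT and 20442 to 29732 in rd6 (log2 fold change −0.63 ± 0.11 SE, q = 0.00126), which does not by itself show the splicing defect. Throughout, q is the Benjamini-Hochberg adjusted p-value of limma over all 17768 genes, a gene was called at q below 0.05, and log2 fold changes are of rd6 against WT on the log2(normalized count + 1) scale. The labels number the samples but name no animals, so the tests measure the spread between these samples.

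Markers of the RPE were abundant in all libraries, among them *Rpe65* (131906 normalized counts or more in WT, 74331 or more in rd6) and *Rgr*, but *Best1*, a chloride channel gene often used as an RPE marker, lay between 9.33 and 48.7. Of 14 RPE markers 4 were lower in rd6 and 0 higher (9 lower and 1 higher without WT replicate 4, and 1 higher without rd6 replicate 2). Their summed level was 1637264 to 2444917 in WT and 1552391 to 2065761 in rd6. Without *Ttr*, its most abundant gene, which was not called (log2 fold change 0.25), the sum was 1093668 to 1601193 in WT and 769312 to 1067544 in rd6, with no overlap. The most abundant gene left in it was *Rgr* (mean 622536 in WT and 338693 in rd6). *Rgr* was 1 of the 4 markers called lower, with *Rpe65*, *Lrat* and *Rlbp1*, and the other RPE markers were not called. Of 14 microglia and macrophage markers 13 were higher in rd6 (median log2 fold change 2.92). *Csf1r*, which gave 92.3% of their sum in WT, was not called, and without it the sum was 1088 to 2290 in WT and 7866 to 18620 in rd6, with no overlap. Of 10 endothelial markers 8 were higher and of 10 rod markers 4 were lower (7 without WT replicate 5 and 9 without rd6 replicate 5). The part of these shifts in the values below was not tested, and in bulk RNA fewer cells of a type and less RNA per cell cannot be told apart. WT replicate 4 was the lowest WT library in 5 of the 10 genes and the highest in 1. It also had the lowest sum of RPE markers in WT (1637264 against 2096997 to 2444917) and the highest sum of Müller glia markers (80549 against 63547 to 68062). *Glul* gave 82.0% of the Müller glia sum in WT. Without it the sum was 26870 in WT replicate 4, 8207 to 10867 in the other WT libraries and 12536 to 21539 in rd6. Every rd6 library then lay above those 5 WT libraries and below WT replicate 4. The most abundant gene left in that sum was *Dkk3*, at 4685 to 22392 in WT and 10381 to 18696 in rd6. *Dkk3* was higher in rd6 (log2 fold change 0.98, q = 0.0411), but not with a replicate block (q = 0.0863). The other markers of this list had negative log2 fold changes: *Glul* was called lower (−0.23, q = 0.00938), and *Aqp4* (−0.03), *Slc1a3* (−0.39) and *Gfap* (−0.44) were not called. Calls of the 10 genes that rest on WT replicate 4 are given with and without it.

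Of the 10 genes 5 were lower in rd6 and 0 higher, where 11.6% of all genes tested were called lower and 11.4% higher. The 5 were *Mfsd2a*, *Acsl6*, *Acsl1*, *Acsl3* and *Lpcat3*. With the study's minimum fold change required as well, *Mfsd2a* and *Acsl6* remained, against 2.12% of all genes lower and 4.69% higher by that rule. In 4 genes (*Mfsd2a*, *Acsl1*, *Acsl6* and *Lpcat3*) every rd6 library lay below every WT library, a pattern that 5.67% of all genes tested showed in this direction and 5.77% in the other. The log2 fold change was negative in 9 of the 10 genes, with a median of −0.30 beside 0.0049 over all genes tested. edgeR and DESeq2 on the recovered reads each called 5 of the 10.

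**Figure D1:**
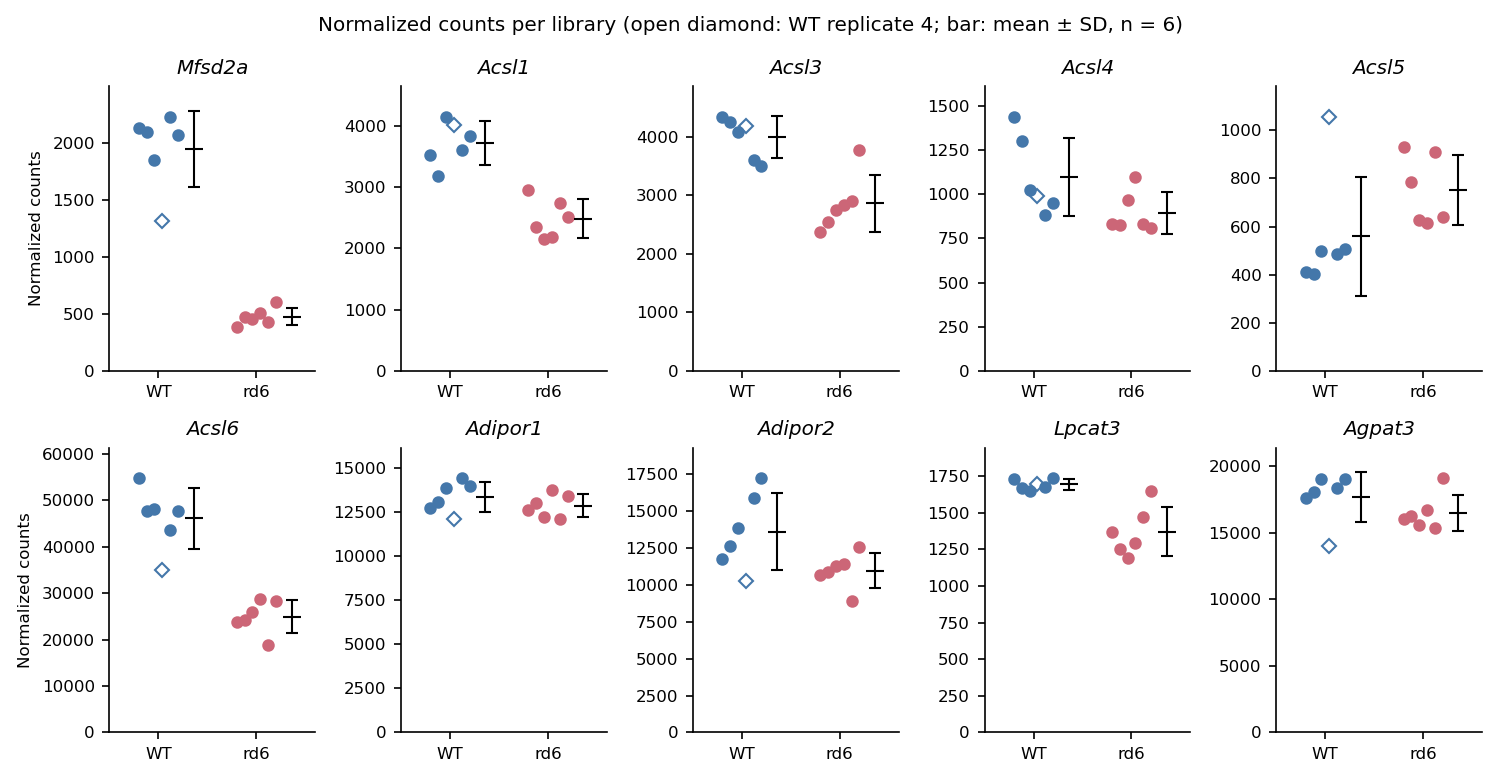
Normalized counts (vertical axes, linear, from 0) of each gene in the 6 WT and 6 rd6 libraries, 1 point a library, with the mean ± SD beside them and WT replicate 4 as an open diamond. *Mfsd2a* shows the widest gap relative to its level, with no rd6 library above 603.4 and no WT library below 1311, and *Adipor1* the closest pair of groups.

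*Mfsd2a*, the sodium-dependent lysophosphatidylcholine symporter, fell most among the 10. The gene lies on the minus strand of chromosome 4 (chr4:122946850-122961188, GRCm38, GENCODE M21). It measured 1311, 2082 and 2232 normalized counts (lowest, median, highest) in WT and 387.5, 464.5 and 603.4 in rd6. All 6 rd6 libraries lay below WT replicate 4, the lowest WT library, and the other WT libraries began at 1853. The log2 fold change was −2.02 ± 0.13 (SE; 95% interval −2.31 to −1.74, q = 4.2e-07), or 4.07-fold lower. Without WT replicate 4 it was −2.13 ± 0.10 (q = 4.6e-08).

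The sequences upstream of the start sites of *Mfsd2a* and *Acsl6* are shown because these genes passed both limits. They are the 250 bases before a RefSeq start (GRCm38.p6), 5′ to 3′ on the strand of the gene, with the CCAAT box, the GC box GGGCGG and the M-box core CATGTG, which MITF, a master regulator of pigment cells, can bind, in capitals wherever they occur on either strand. *Mfsd2a* has 1 such start (minus strand, chr4:122961189-122961438) and *Acsl6* has 3 (plus strand, chr11:54303574-54303823, chr11:54303954-54304203 and chr11:54314653-54314902).
Mfsd2a: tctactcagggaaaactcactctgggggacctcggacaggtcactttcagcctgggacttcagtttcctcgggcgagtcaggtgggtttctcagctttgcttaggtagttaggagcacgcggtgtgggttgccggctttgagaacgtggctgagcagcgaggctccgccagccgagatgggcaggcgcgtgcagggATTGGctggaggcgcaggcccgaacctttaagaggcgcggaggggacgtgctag
Acsl6, start 1: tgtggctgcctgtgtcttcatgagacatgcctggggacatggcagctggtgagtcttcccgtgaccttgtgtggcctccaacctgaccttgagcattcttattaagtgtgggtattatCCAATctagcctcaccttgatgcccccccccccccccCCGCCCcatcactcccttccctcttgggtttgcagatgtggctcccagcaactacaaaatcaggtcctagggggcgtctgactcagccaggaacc
Acsl6, start 2: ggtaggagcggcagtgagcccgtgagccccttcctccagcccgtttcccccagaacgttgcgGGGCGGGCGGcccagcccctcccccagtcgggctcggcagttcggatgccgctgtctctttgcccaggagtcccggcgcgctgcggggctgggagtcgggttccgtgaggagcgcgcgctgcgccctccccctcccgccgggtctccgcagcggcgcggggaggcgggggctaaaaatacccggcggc
Acsl6, start 3: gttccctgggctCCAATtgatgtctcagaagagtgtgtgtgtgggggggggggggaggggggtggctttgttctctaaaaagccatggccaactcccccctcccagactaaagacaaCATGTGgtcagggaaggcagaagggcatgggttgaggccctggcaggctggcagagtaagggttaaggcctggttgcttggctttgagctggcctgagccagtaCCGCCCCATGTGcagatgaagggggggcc
The *Mfsd2a* window holds a single CCAAT, read on the reverse strand and beginning 54 bases before the start, and no GGGCGG or CATGTG. Starts 1 and 2 of *Acsl6* hold GGGCGG, overlapping itself in start 2, and start 3 holds CATGTG 133 and 23 bases before the start, the latter directly after a GGGCGG on the reverse strand. Over the full promoter windows of 300 bases (with 50 bases past the start), the 10 genes have 14 promoters, of which 2 (both of *Acsl6*) contain CATGTG, 9 GGGCGG and 8 CCAAT. Of all 32851 mouse promoters of this length, 14.2% contain CATGTG, 35.7% GGGCGG and 37.4% CCAAT. None of the 14 contains CACGTG (7.15% of all), TAATCC, the core recognized by OTX2 and CRX (7.06%), TATAAA (13.6%), or AGGTCA repeats spaced by 1 base (0.0396%) or by 4 bases (0.0152%). The windows of *Adipor2* and *Agpat3* contain none of the motifs searched. These matches describe the letters only.

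Of the 5 *Acsl* genes 3 were lower in rd6 and 2 were not called. *Acsl6* (chr11:54303798-54364756, plus strand), the isoform that handles DHA in brain and retina, was lower by 1.85-fold in rd6. It measured 34971, 47613 and 54770 normalized counts in WT and 18794, 25051 and 28676 in rd6. The groups did not overlap, with WT replicate 4 the lowest of WT and rd6 replicate 5 the lowest of all. In log2 units the change was −0.89 ± 0.12 (95% interval −1.15 to −0.63, q = 1.8e-04), and −0.97 ± 0.10 (q = 3.5e-05) without WT replicate 4.

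*Acsl1* (chr8:46471037-46536051, plus strand), a broadly expressed isoform that feeds both lipid synthesis and oxidation, measured 3183, 3723 and 4155 in WT and 2148, 2431 and 2957 in rd6. Its groups did not overlap, and WT replicate 4 lay among the other WT libraries. The log2 fold change was −0.59 ± 0.09 (95% interval −0.78 to −0.40, q = 4.2e-04). *Acsl3* (chr1:78657825-78707743, plus strand), an isoform of the endoplasmic reticulum and lipid droplets, measured 3502, 4139 and 4348 in WT and 2379, 2792 and 3776 in rd6. Here 5 of 6 rd6 libraries lay below all of WT, and rd6 replicate 6 did not. The change was −0.49 ± 0.10 on the log2 scale (95% interval −0.71 to −0.27, q = 0.00356).

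*Acsl4* (chrX:142317993-142390535, minus strand), which prefers arachidonic acid and other long polyunsaturated chains, was not called. It measured 885.7, 1007 and 1441 normalized counts in WT and 807.2, 830.5 and 1100 in rd6 (log2 fold change −0.28 ± 0.12, 95% interval −0.55 to −0.02, q = 0.118, and −0.31 ± 0.13 without WT replicate 4, q = 0.0998). The groups overlapped, the 2 highest values being WT replicates 1 and 2.

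*Acsl5* (chr19:55251938-55297720, plus strand), an isoform best known from intestine and liver, was the only one of the 10 with a positive log2 fold change. It measured 402.5, 492.0 and 1058 in WT and 613.0, 713.4 and 932.0 in rd6. The 1058 was WT replicate 4, above every rd6 library, and the other 5 WT libraries lay at 505.6 or below, under every rd6 library. Over all 12 libraries the log2 fold change was 0.49 ± 0.21 (95% interval 0.03 to 0.95, q = 0.120), which was not called. Without WT replicate 4 it was 0.69 ± 0.13 (95% interval 0.41 to 0.97, q = 0.0019), so this 1 library decided whether *Acsl5* was called.

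Divided by the length of the merged exons, the levels of the *Acsl* genes could be compared with each other. In WT *Acsl6* led with 4652 ± 660 normalized counts per kb (SD, n = 6), followed by *Acsl3* (917.5 ± 82.2), *Acsl1* (354.9 ± 34.0), *Acsl4* (203.2 ± 40.8) and *Acsl5* (115.1 ± 51.0). The ranges of *Acsl4* and *Acsl5* overlapped, and the other neighbours in this order did not. The summed level of the 5 genes was 5272, 6329 and 7209 per kb (lowest, median, highest) in WT and 3165, 3660 and 4237 in rd6. *Acsl6* made up a median of 75.2% of this sum in WT (66.9 to 76.8%) and 67.9% in rd6 (59.9 to 70.9%), with WT replicate 4 in the range of rd6. *Acsl5* went from a median of 1.62% (1.17 to 4.12%) to 3.98% (3.09 to 5.91%), *Acsl4* from 3.20% to 4.54%, *Acsl3* from 14.3% to 16.6%, and *Acsl1* from 5.88% to 5.97%. These shares sum to a fixed total and are given as a description.

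**Figure D2:**
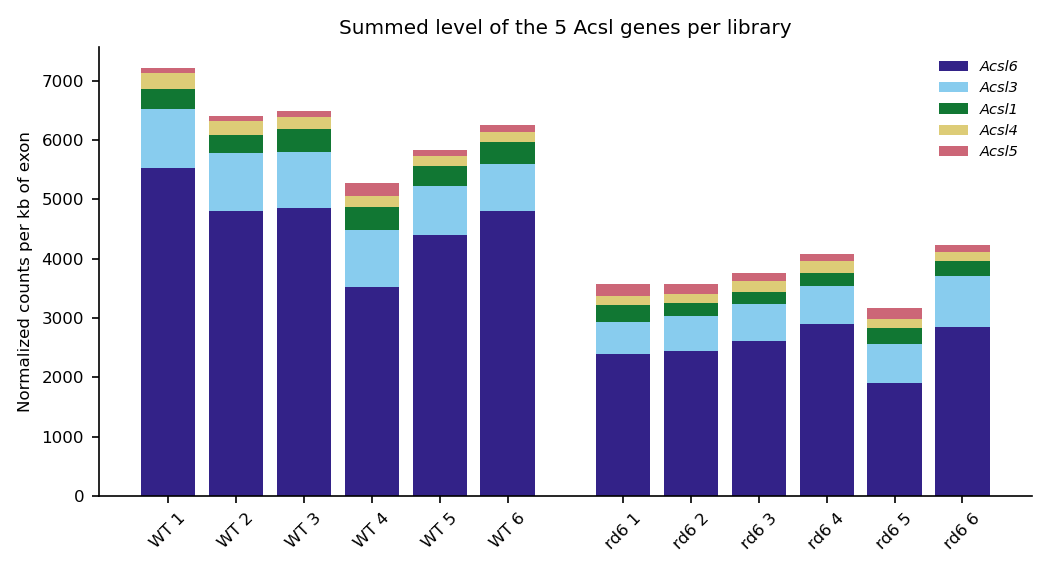
Normalized counts per kb of merged exon, summed over the 5 *Acsl* genes, with 1 stacked bar a library (6 WT, 6 rd6) and 1 color a gene. Bars of WT libraries reach 5272 to 7209 and those of rd6 libraries 3165 to 4237, and *Acsl6* is the largest segment in each.

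Neither adiponectin receptor was called over all 12 libraries, while the ratio of one to the other was higher in rd6. *Adipor1* (chr1:134415378-134433351, plus strand) measured 12142, 13473 and 14449 normalized counts in WT and 12134, 12856 and 13778 in rd6. The ranges nearly coincided, and the log2 fold change was −0.05 ± 0.05 (95% interval −0.17 to 0.06, q = 0.522). Without WT replicate 4 it was −0.08 ± 0.05 (95% interval −0.19 to 0.03, q = 0.271). As a ratio to *Actb*, a common reference transcript, *Adipor1* was 68.4% ± 9.31 in WT and 69.0% ± 10.4 in rd6 (SD, n = 6 per group, exact permutation test, two-sided p = 0.937). As a ratio to *Gapdh*, which was itself higher in rd6, it was 0.792 of the WT ratio (exact permutation test, two-sided p = 0.00216).

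*Adipor2* (chr6:119353150-119417704, minus strand) measured 10299, 13225 and 17247 in WT and 8940, 11087 and 12598 in rd6. The ranges overlapped, with WT replicates 1 and 4 inside the range of rd6 and the other 4 WT libraries above it. The log2 fold change was −0.30 ± 0.12 (95% interval −0.56 to −0.04, q = 0.0945) and was not called. Without WT replicate 4 it was −0.37 ± 0.11 (q = 0.0224) and was called.

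The ratio of *Adipor1* to *Adipor2* per kb was 0.964, 1.21 and 1.40 in WT and 1.27, 1.42 and 1.61 in rd6. It cancels anything that scales a whole library, but not a difference in the mix of cells. In each genotype it was highest in the library with the lowest sum of RPE markers, WT replicate 4 (1.40) and rd6 replicate 5 (1.61). In rd6 it was lowest in replicate 6, which had the highest sum. In WT it was lowest in replicate 6, while replicate 5 had the highest sum. The part of cell mix in the ratio was not tested. The ranges of the ratio in WT and rd6 overlapped between 1.27 and 1.40. The mean log2 ratio was 0.24 higher in rd6 (0.24 ± 0.19 in WT and 0.49 ± 0.13 in rd6, SD, n = 6 per group, exact permutation test over all splits into 6 and 6, two-sided p = 0.0173). Leaving out any 1 library left the difference between 0.18 and 0.29 and p between 0.00866 and 0.0455.

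*Lpcat3* (chr6:124663027-124704418, plus strand), which places polyunsaturated chains into lysophosphatidylcholine and lysophosphatidylethanolamine, was lower in rd6. It measured 1651, 1685 and 1737 normalized counts in WT, the narrowest WT range of the 10, and 1194, 1330 and 1649 in rd6. The groups did not overlap, but rd6 replicate 6 lay only just under the lowest WT library. On the log2 scale the change was −0.31 ± 0.07 (95% interval −0.46 to −0.16, q = 0.0063). *Agpat3* (chr10:78269178-78352489, minus strand), which adds DHA and other polyunsaturated chains to lysophosphatidic acid, measured 14023, 18188 and 19053 in WT and 15315, 16112 and 19096 in rd6. WT replicate 4 was the lowest of the 12 libraries and rd6 replicate 6 the highest. *Agpat3* was not called with all libraries (log2 fold change −0.10 ± 0.08, 95% interval −0.27 to 0.08, q = 0.420) or without WT replicate 4 (−0.16 ± 0.06, q = 0.0627).

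**Figure D3:**
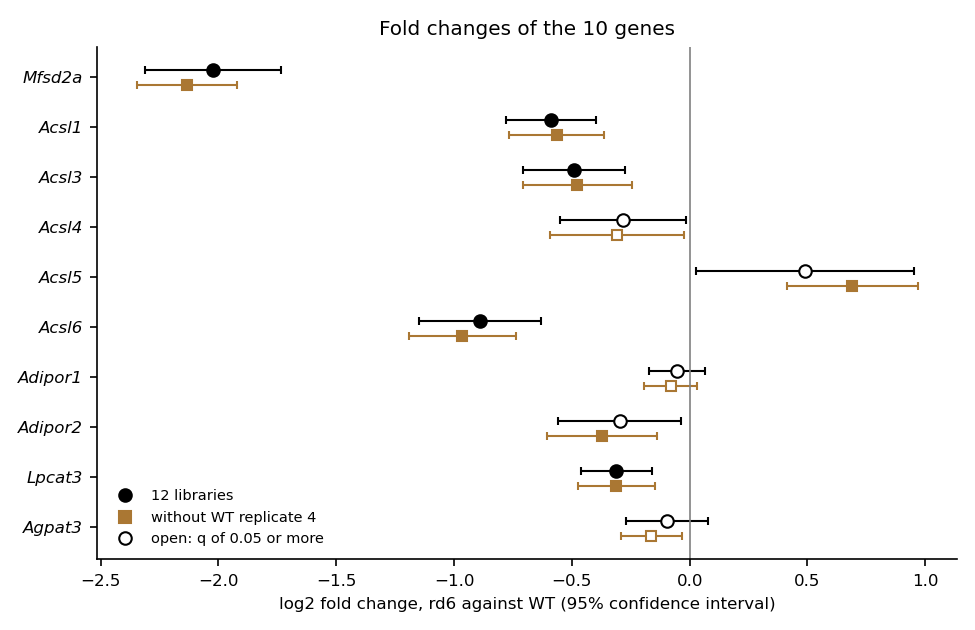
Log2 fold changes of rd6 against WT (horizontal axis) with 95% confidence intervals for the 10 genes, over all 12 libraries (black circles) and without WT replicate 4 (brown squares), filled where q is below 0.05. *Acsl5* and *Adipor2* are filled only without WT replicate 4, and *Acsl4*, *Adipor1* and *Agpat3* are open in both.

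Some exons of these genes are shared with others, and reads there may be counted for either gene or for neither. *Lpcat3* overlaps *Emg1* on the other strand over 10.2% of its exon bases, *Acsl5* overlaps *Zdhhc6* on the other strand over 8.31%, *Acsl3* overlaps *Utp14b* on the same strand over 5.60%, and *Acsl1* overlaps the unspecified transcript *Gm45244* on the other strand over 9.91%. *Acsl6* and *Agpat3* share 2.04% and 0.205% with noncoding genes, and *Mfsd2a*, *Acsl4*, *Adipor1* and *Adipor2* have no such overlap in GENCODE M21.

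Per kb of merged exon, *Acsl6* was the highest of the 10 genes in WT (4652), ahead of *Adipor1* (2661 ± 173), *Adipor2* (2277 ± 435) and *Agpat3* (2269 ± 241), the last 3 having overlapping ranges. *Acsl3* (917.5) and *Mfsd2a* (866.0 ± 149) overlapped as well and were followed by *Lpcat3* (518.0 ± 10.7). In rd6 *Adipor1* (2563 ± 131) and *Acsl6* (2514 ± 365) led with overlapping ranges. *Mfsd2a* stood at 211.5 ± 32.9 per kb in rd6, next to *Acsl1* (236.7 ± 30.4), with which it overlapped. In WT *Acsl6* stood above 98.4% of the 17743 genes ranked by level per kb, *Mfsd2a* above 89.5% and *Acsl5* above 51.5%. These levels depend on the length used. Per kb of the longest transcript, *Acsl6* was 7942 and *Acsl1* 655.5 in WT, and in rd6 *Acsl6* (4292) stood above *Adipor1* (3738) and *Acsl5* (177.0) above *Acsl4* (169.3).

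With each gene divided by *Actb* in its library, exact permutation tests gave an unadjusted two-sided p below 0.05 for 5 of 10 genes, all lower in rd6, and the smallest p that these splits allow (0.00216) for *Mfsd2a*. The *Mfsd2a* ratio was 9.997% ± 2.13 of *Actb* in WT and 2.53% ± 0.39 in rd6. *Actb* itself was not called (log2 fold change −0.06 ± 0.10, q = 0.684). *Gapdh* was higher in rd6 (0.29 ± 0.08, q = 0.0265), and divided by it 9 of 10 genes were lower, against 6 of 10 with no reference gene. These tests were run on the 10 genes alone, so no share of all genes stands beside their counts.

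The genes whose profile over the 12 libraries was nearest to that of *Mfsd2a*, by the root mean square difference of centred log2 values, were *Gm19531* (0.13), *Fscn1* (0.16) and *Cdhr1* (0.16), where the median over all genes was 1.06. *Fscn1* encodes an actin-bundling protein (log2 fold change −2.24) and *Cdhr1* a photoreceptor cadherin (−1.79). *Gm19531* is annotated as antisense and its reads may be shared with another gene. Nearest to *Acsl6* were *Lrat*, the enzyme that forms retinyl esters (0.07, log2 fold change −0.98), *Slc24a1* (0.09, −0.78) and *Col8a2* (0.09, −0.95), beside a median of 0.54. Nearest to *Adipor1* were *Akt2*, *Ubap1* and *Nmt1* (each 0.04), beside 0.24, and none of the 3 was called. The difference between genotypes is part of this distance, so near genes have similar fold changes by construction.

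Around these 10 genes, 9 lists of related lipid genes were counted in the same fit, in which 11.6% of all genes tested were lower and 11.4% higher. A list with counts near these shares is not set apart by them. Of 10 tested further acyl-CoA synthetases and transport proteins with that activity, 2 were higher and 1 lower (median log2 fold change 0.20). The higher ones were *Acss1*, a mitochondrial acetyl-CoA synthetase (0.96 ± 0.24, q = 0.012), and *Acsf3*, a malonyl-CoA synthetase (0.26, q = 0.0405), and the lower one was *Slc27a1*, the fatty acid transport protein FATP1 (−0.35, q = 0.0271). Of 12 thioesterases, which cleave acyl-CoA back to free acid, 3 were lower and 0 higher (median −0.05). *Acot1* read 1520 in WT and 608.2 in rd6 (medians, log2 fold change −1.37 ± 0.17, q = 9.4e-05) and *Acot2* 792.7 and 577.4 (−0.47, q = 0.00699), but these near-identical paralogs may share reads, which leaves their split uncertain. Leaving out single libraries moved these counts: 1 synthetase was higher without any 1 of WT replicates 3, 5 and 6 or rd6 replicates 1, 2, 3, 4 and 6, 0 were lower without WT replicates 1 or 2 or rd6 replicates 1, 2 or 3, 2 were lower without rd6 replicate 4, and 1 thioesterase was higher without WT replicates 4 or 5.

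Of 17 genes of fatty acid and lysolipid uptake and binding, 3 were higher and 4 lower (median −0.02). *Fabp5*, an epidermal-type fatty acid binding protein, ranged from 23.7 to 571.1 in WT and from 233.1 to 719.6 in rd6 (log2 fold change 2.42 ± 0.59, q = 0.0108, and 3.01 without WT replicate 4), and *Lpl*, lipoprotein lipase, rose by 1.23 ± 0.36 (q = 0.0265). *Mfsd2b*, the nearest relative of *Mfsd2a* and an exporter of sphingosine 1-phosphate, was lower (−0.72 ± 0.12, q = 8.8e-04), as was *Vldlr*, the receptor of very-low-density lipoprotein (−0.34 ± 0.08, q = 0.00696). The values of *Fabp5* and *Lpl* stood beside the rise of microglia and endothelial markers given above, whose part was not tested. The 4 lower genes became 2 without any 1 library other than WT replicates 2 and 4 and rd6 replicates 4 and 6.

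Of 16 other acyltransferases, 3 were lower and 0 higher (median −0.03), with *Lpcat1*, which makes saturated phosphatidylcholine (−0.57 ± 0.09, q = 5.2e-04), and *Mboat7*, which places arachidonic acid into phosphatidylinositol (−0.38 ± 0.05, q = 3.1e-04), the largest. Of 16 phospholipases A, 3 were higher and 5 lower (median −0.05). *Pnpla3* (0.92 ± 0.27, q = 0.0263) and the lysosomal *Pla2g15* (0.38 ± 0.07, q = 0.00193) were higher, and *Pla2g6* (−0.49 ± 0.07, q = 4.1e-04) and *Ddhd2* (−0.45 ± 0.07, q = 5.8e-04) lower. Of 20 genes of headgroup synthesis, 7 were lower and 0 higher (median −0.12), led by the ethanolamine kinase *Etnk1* (−0.47 ± 0.11, q = 0.00721) and the ethanolamine branch enzyme *Pcyt2* (−0.44 ± 0.11, q = 0.014). Without WT replicate 4, 2 acyltransferases were higher. The 3 higher phospholipases became 1 without WT replicate 5 or rd6 replicates 4, 5 or 6, and the 5 lower ones became 3 without WT replicates 3, 5 or 6 or rd6 replicates 1 or 3.

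Among 20 tested genes of adiponectin signaling and AMPK, 3 were higher and 5 lower (median −0.03). The regulatory AMPK subunits *Prkag2* (0.41 ± 0.06, q = 4.8e-04) and *Prkab2* (0.37 ± 0.08, q = 0.00557) were higher, whereas *Ppara*, a fatty acid receptor (−0.66 ± 0.15, q = 0.00568), and the adaptor *Appl2* (−0.38 ± 0.13, q = 0.0497) were lower. *Adipoq*, the gene of adiponectin itself, stayed at 8.72 normalized counts or below in all libraries and did not pass the filter. Of the 9 other members of the progestin and adipoQ receptor family, to which the ADIPORs belong, 1 was higher and 5 were lower (median −0.39). *Mmd* read 1390 to 1896 in WT and 2783 to 3631 in rd6, with no overlap (0.98 ± 0.08, q = 3.7e-06), and *Paqr6* (−0.93 ± 0.23, q = 0.0112) and *Paqr8* (−0.58 ± 0.18, q = 0.0363) were lower. Without WT replicate 4 *Paqr8* was not called (−0.48, q = 0.0566). Of 7 ceramidase and sphingosine kinase genes, only *Asah2*, a neutral ceramidase, was called (−0.44 ± 0.10, q = 0.00837), and 1 gene was higher without rd6 replicates 4 or 5. These counts were sensitive to single libraries. The 5 lower genes of adiponectin signaling became 1 without WT replicates 3 or 6, 2 without WT replicates 1 or 2 or rd6 replicates 1, 2, 5 or 6, and 3 without rd6 replicate 3. The 5 lower receptors became 2 without WT replicates 1 or 2 or rd6 replicates 1, 2 or 6, and 3 without WT replicates 3, 5 or 6 or rd6 replicates 3 or 4. Among the genes named from these lists, 6 lost their call without some single libraries. *Appl2* was called only with all libraries or without WT replicates 4 or 5 or rd6 replicate 4 (q up to 0.106), *Acsf3* only with all or without WT replicates 1, 2 or 4 or rd6 replicate 5 (up to 0.0846), and *Paqr8* only with all or without WT replicates 3, 5 or 6 or rd6 replicate 5 (up to 0.0775). *Slc27a1* was not called without WT replicates 1 or 2 or rd6 replicates 1, 2 or 3 (up to 0.0626), *Pnpla3* without WT replicates 5 or 6 or rd6 replicates 4, 5 or 6 (up to 0.0572), and *Lpl* without WT replicates 1 or 5 or rd6 replicates 3 or 5 (up to 0.0546).

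**Figure D4:**
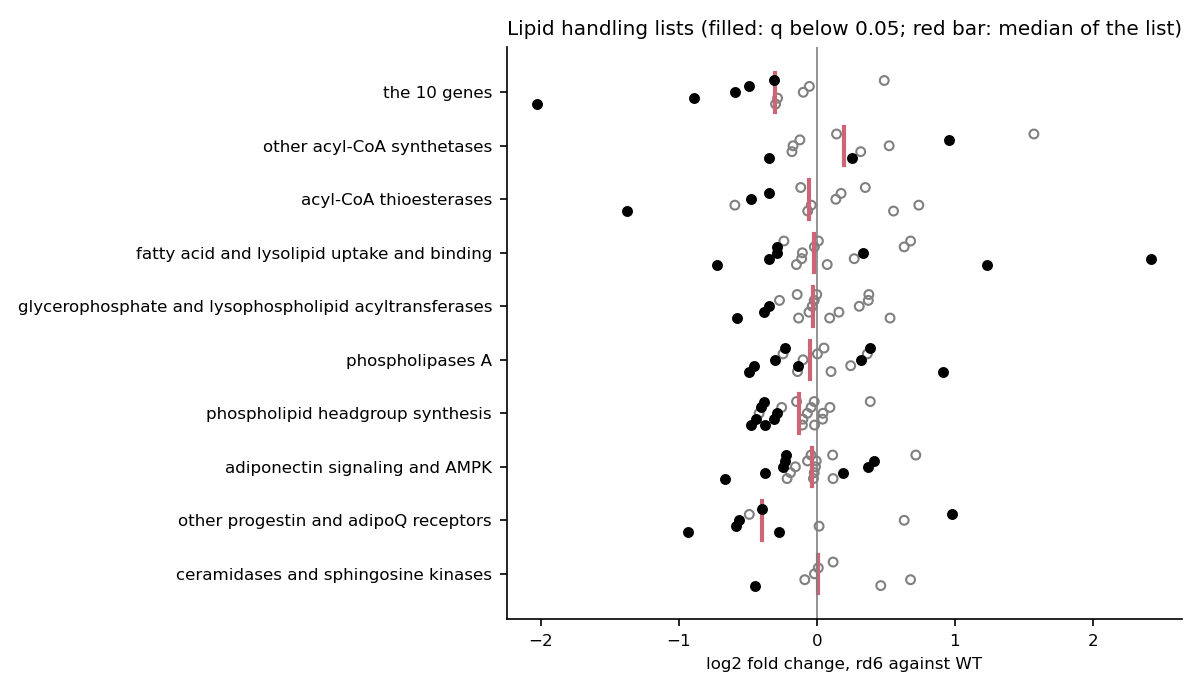
Log2 fold changes of rd6 against WT (horizontal axis) for the tested genes of the 10 genes and of 9 related lists, 1 point a gene, filled where q is below 0.05, with a red bar at the median of each list. The median of the 10 genes is −0.30, that of the other progestin and adipoQ receptors −0.39, and those of the remaining lists lie between −0.12 and 0.20.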

How the data were processed

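RPE RNA from 6 WT and 6 rd6 mice was sequenced by the authors as stranded paired-end total-RNA libraries. Alignment to mm10 and counting were done with Rsubread, by the methods at its standard settings, and no strand setting is named. The deposited signal of a gene is its number of reads over the size factor that DESeq2 assigned to the library, and all values were whole multiples of 1 read (100% within 0.01), so reads were recovered. Of 28596 entries, 5 repeats of identifiers were dropped. The deposited mean, fold-change, statistic and p-value columns of the authors' comparison were not used. Total reads were 29218135 to 33152725 in WT and 28907262 to 32336530 in rd6, and 3 reads, the floor, equal 2.71 to 3.32 normalized counts (counting error only).

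limma 3.58.1 (R 4.3.3) with a mean-variance trend was fitted to log2(normalized count + 1) in 17768 genes averaging 10 or more, modeling genotype alone. Each gene was called at q below 0.05, and separately with 1.75-fold. Ratios were compared by exact permutation over 924 splits. The ratio tests were not adjusted over the 10 genes. The design had planned an adjustment over them, which was dropped because the genes were chosen with earlier results known. edgeR 4.0.16 and DESeq2 1.42.0 on recovered reads, other pseudocounts (0.1, 10), filters and scalings, a replicate block and leaving out each library were alternatives. The fits were tested on simulated data. The lowest chi-square per gene between 2 libraries was 8.86, so none was a copy.

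The 10 genes and all lists were chosen with earlier results of these data known. Beyond the 10 genes, *Mfrp*, *Actb* and *Gapdh*, those named are at most 2 higher and 2 lower called genes of each lipid list by size of change, the 3 nearest profiles of *Mfsd2a*, *Acsl6* and *Adipor1*, and defining markers. *Adipoq*, *Csf1r*, *Ttr*, *Best1*, *Rlbp1* and the Müller glia markers *Glul*, *Dkk3*, *Aqp4*, *Slc1a3* and *Gfap* were added once their values were known. Lengths are of merged exons (GENCODE M21, which has 28510 of the genes), and promoters are RefSeq's.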

Additional observations from a re-analysis of the deposited data

Results flagged for a closer look

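By Dixon's test at the 95% level, which flags about 1 in 20 groups by chance, 3 values stood apart from the other 5 libraries of their genotype, among 22 groups tested (the 10 genes and the ratio of *Adipor1* to *Adipor2*, in each genotype). *Acsl5* in WT replicate 4 was 1058 normalized counts, where the other WT libraries lay between 402.5 and 505.6. *Agpat3* in WT replicate 4 was 14023, where the others lay between 17600 and 19053. *Agpat3* in rd6 replicate 6 was 19096, where the others lay between 15315 and 16666. The causes were not tested.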

How the results depend on the processing

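Each log2 fold change was recomputed under 21 alternatives, and 208 of the 210 values kept their direction and their side of q = 0.05. The exceptions came without WT replicate 4, where *Acsl5* (0.69, q = 0.0019) and *Adipor2* (−0.37, q = 0.0224) were called by limma, so that 1 gene was higher instead of 0 and 6 were lower instead of 5. Leaving out each library in turn gave 0.41 to 0.69 for *Acsl5*, −0.37 to −0.22 for *Adipor2*, and 0 to 1 genes called higher. Ratios to *Actb* (rd6 over WT, exact permutation tests) ranged over the same omissions from 1.33 to 1.66 for *Acsl5*, 0.791 to 0.901 for *Adipor2*, 0.910 to 1.02 for *Agpat3* and 0.968 to 1.05 for *Adipor1*, so that the direction of the last 2 was not fixed. With *Gapdh* in place of *Actb* they were 0.665 for *Acsl4*, 0.668 for *Adipor2*, 0.766 for *Agpat3* and 0.792 for *Adipor1*, each with p below 0.05, as *Gapdh* itself was higher in rd6. With no reference gene *Adipor2* was 0.805 (p = 0.0476, exact permutation test) and *Adipor1* 0.963. No scaling moved the median log2 fold change of all genes by more than 0.04. By length of the longest transcript the WT order of the 10 genes was the same, but in rd6 *Acsl6* and *Adipor1* changed places, as did *Acsl4* and *Acsl5*.

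Same-numbered WT and rd6 libraries share only a number. Their correlations ran from −0.74 to 0.31 and 0 WT libraries correlated best with their own number. With the replicate block 5 of the 10 genes were called, as without it, and over all genes 1453 were higher and 1489 lower in place of 2024 and 2062. The block lowered several list counts by over 1.5 times: headgroup synthesis from 7 to 4 lower, progestin and adipoQ receptors from 5 to 2 lower, phospholipases A from 3 to 1 higher and 5 to 3 lower, adiponectin signaling from 5 to 3 lower, further synthetases from 2 to 1 higher and 1 to 0 lower, rod markers from 4 to 1 lower and endothelial markers from 8 to 5 higher. In the block by sign flips the ratios of *Acsl6* (0.564) and *Lpcat3* (0.839) had p = 0.0625 (exact permutation test). Of 378 recomputed counts of the lipid lists, 76 moved by over 1.5 times. Upper-quartile rescaling left 1 of the 5 lower adiponectin signaling genes. The cause was not tested.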
